A study of Mus musculus with 16 samples.

Results

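The comparison set large peritoneal macrophages (LPM) from mice with a myeloid deletion of Bhlhe40 against LPM from wild-type mice, all after injection of IL-4 complex (IL-4c). Arrays were chosen by their titles, which gave 4 of the 16 arrays of the series: 2 labelled Bhlhe40LysM (LysM) and 2 labelled Bhlhe40WT (WT). The design text gives LysM as LysM-Cre+ Bhlhe40fl/fl, a floxed Bhlhe40 gene with Cre made from the Lyz2 (LysM) locus in myeloid cells, and WT as Bhlhe40+/+, so the WT mice are not described as carrying the floxed allele or Cre. A further pair of arrays came from IL-4c-injected mice lacking Bhlhe40 in all cells, Bhlhe40-/- (KO). All were male C57BL/6 mice injected on days 0 and 2 and killed on day 4, and LPM were sorted from peritoneal lavage. There are no IL-4c-free LysM arrays here, but LPM of untreated KO and WT mice were measured on 3 arrays each. No age is given, and no label says whether the arrays of a group came from different animals. P-values therefore measure only the spread between arrays, which may be technical, and the small number of arrays limits the precision.

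LPM are the most numerous macrophages resident in the peritoneal cavity. They carry the transcription factor GATA6 and renew themselves by division in place. IL-4 acts through its receptor and STAT6 to give the alternatively activated state, marked by arginase 1, RELMalpha and Ym1, and IL-4c in mice also drives resident macrophages into the cell cycle. Bhlhe40 is a basic helix-loop-helix repressor that binds the E-box CACGTG and related sites, and its paralog Bhlhe41 binds the same motif. Because LysM-Cre acts in macrophages, monocytes and neutrophils, the LysM mice ask whether effects seen in KO mice also follow deletion within the myeloid lineage.

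Values are the authors' log2 signals from robust multi-array average (RMA) processing of one-colour Affymetrix arrays, so a difference of 1 is a 2-fold change. Differences are LysM minus WT with the standard error (SE) and the Benjamini-Hochberg adjusted p of limma, and a gene was called at an adjusted p under 0.05. Array medians lay between 4.79 and 4.93. Over all probe sets of an array, which are no independent replicates, the LysM arrays correlated with each other at 0.989 and the WT arrays at 0.9918, while LysM and WT arrays correlated at 0.9808 to 0.9881 (Pearson's r). All 10 measured LPM defining markers, Gata6, Adgre1, Icam2 and Timd4 among them, lay above the array median on all 6 IL-4c arrays. The means of these 10 markers were 10.01 and 10.17 on the LysM arrays and 9.82 and 9.71 on the WT arrays.

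Bhlhe40 itself (chromosome 6, 108660629 to 108666925, GRCm38.p6) did not separate the LysM from the WT arrays. Its signal was 8.75 and 8.83 in LysM, 8.01 and 7.90 in KO and 8.77 and 8.99 in WT, and LysM minus WT was -0.09 ± 0.19 (95% interval -0.50 to 0.31, adjusted p = 0.837, limma). The KO arrays overlapped neither of the other groups. No source used here places the probes against the floxed segment. This probe set therefore does not check the deletion, and every direction below rests on the LysM label. KO minus WT for Bhlhe40 was -0.93 (adjusted p = 0.0132, limma). Bhlhe41 read 5.13 and 4.27 in LysM, 5.41 and 4.04 in KO and 3.44 and 3.51 in WT, and its LysM minus WT difference of 1.22 ± 0.38 missed the threshold (adjusted p = 0.0592, limma).

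Lyz2 (chromosome 10, 117277541 to 117282272), the gene that carries Cre in LysM mice, read 10.76 and 10.92 in LysM and 10.83 and 10.05 in WT, and was not called (0.40 ± 0.19, adjusted p = 0.224, limma). Its neighbour and near-identical paralog Lyz1 (117287795 to 117292868) was 10.92 and 10.62 in LysM, 8.76 and 8.97 in KO and 9.40 and 8.87 in WT. Lyz1 was 3.1-fold higher in LysM than in WT (1.63 ± 0.39, adjusted p = 0.0178, limma), while KO minus WT was -0.27 (adjusted p = 0.812). The call was lost without LysM replicate 1 and without WT replicate 2. LysM minus KO for Lyz1 was 1.91 (95% interval 1.07 to 2.75, adjusted p = 0.133 over all genes). In untreated mice Lyz1 read 11.67 to 12.11 in KO and 12.03 to 12.13 in WT, above every IL-4c array. How far the probes tell Lyz1 from Lyz2 was not tested.

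**Figure D1:**
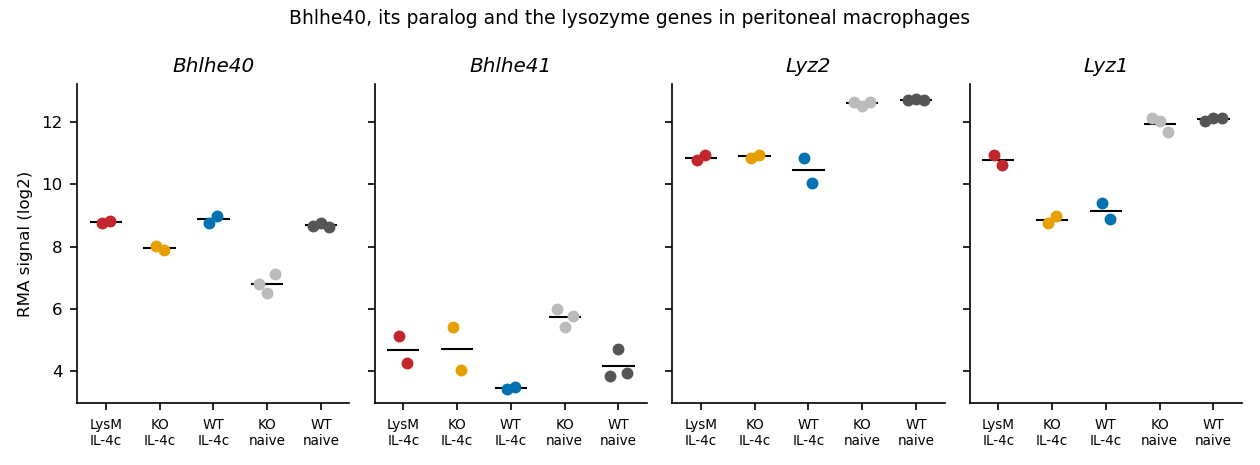
RMA signal (log2, vertical axis) of Bhlhe40, Bhlhe41, Lyz2 and Lyz1 in LPM, with 1 point per array and a bar at the group mean, for LysM, KO and WT after IL-4c and for untreated KO and WT. Bhlhe40 lies at 8.75 and 8.83 in LysM beside 8.77 and 8.99 in WT, and Lyz1 lies above both other IL-4c groups in LysM.

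Of 11634 genes tested, 1009 (8.67%) were called between LysM and WT, 559 higher in LysM (4.8% of all tested) and 450 lower (3.87%). Of the called genes, 320 differed at least 2-fold. The median difference over all tested genes was -0.01 and the median SE was 0.17. Without LysM replicate 1 the count was 303, and without WT replicate 2 it was 240. A fit on only the 4 arrays compared called 150.

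**Figure D2:**
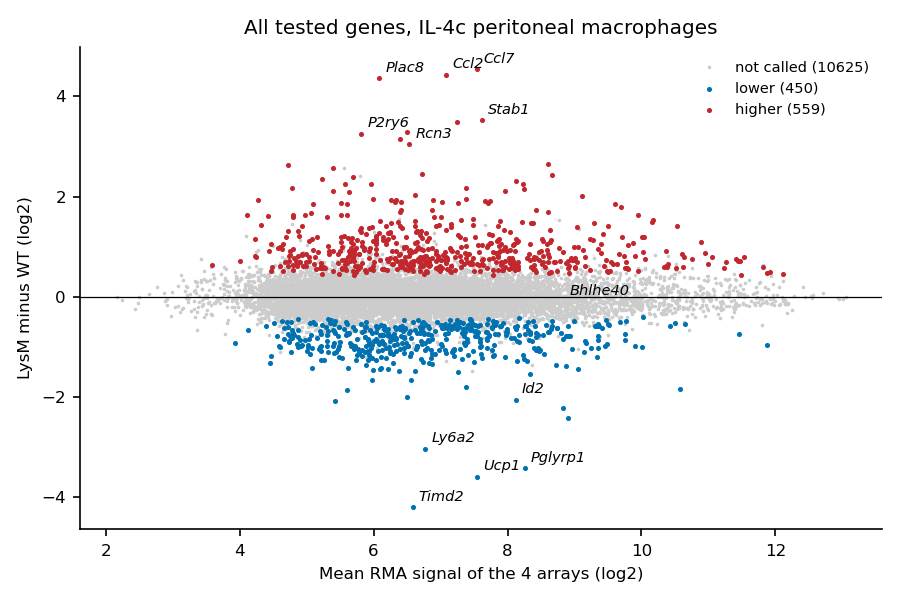
Difference between LysM and WT (log2, vertical axis) against the mean signal of the 4 arrays (log2, horizontal axis) for all 11634 tested genes, with the 559 called higher in red and the 450 called lower in blue. Stab1, Ccl7, Ccl2 and Plac8 lie far above 0, Timd2, Ucp1, Pglyrp1 and Ly6a2 far below, and Bhlhe40 lies at -0.09.

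The 12 largest rises included 3 chemokines, Ccl7, Ccl2 and Ccl8. Ccl7, a ligand of the chemokine receptor CCR2, read 10.75 and 8.88 in LysM, 10.36 and 7.72 in KO and 5.69 and 4.85 in WT. It was 23.4-fold higher in LysM than in WT (4.55 ± 0.72, adjusted p = 0.00124, limma). Ccl2, the principal CCR2 ligand, behaved alike, at 10.32 and 8.27 in LysM, 9.67 and 6.81 in KO and 5.09 and 4.64 in WT (4.43 ± 0.71, adjusted p = 0.00136, limma). For both genes LysM and WT did not overlap, as for 24.2% (LysM above) and 25.4% (LysM below) of all genes, and replicate 1 was the higher array in each group. Untreated WT LPM read 7.84 to 8.31 for Ccl2 and 6.17 to 7.13 for Ccl7, above both IL-4c WT arrays. Ccl8, a further chemokine of the same cluster on chromosome 11, was 9.10 and 8.86 in LysM, 9.0 and 5.06 in KO and 6.33 and 4.66 in WT (3.49 ± 0.78, adjusted p = 0.012, limma). The Ccl8 call was lost without LysM replicate 1 and without WT replicate 2.

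Stab1, the scavenger receptor stabilin 1, gave the smallest adjusted p among these leading genes. It read 9.29 and 9.45 in LysM, 9.38 and 9.18 in KO and 5.66 and 6.04 in WT, 11.5-fold higher in LysM than in WT (3.52 ± 0.22, adjusted p = 4.76e-07, limma). Untreated KO arrays already stood at 8.82 to 9.26 against 5.60 to 6.15 in untreated WT, so the difference between genotypes was also present without IL-4c. Plac8 was 7.12 and 9.41 in LysM, 9.38 and 9.03 in KO and 4.66 and 3.14 in WT (4.36 ± 0.56, adjusted p = 0.000289, limma). Both WT values lay below the array medians (4.85 and 4.82), so the size of this rise is uncertain. Among untreated LPM, Plac8 read 5.72 to 5.94 in KO and 4.97 to 5.95 in WT, which overlap. Olr1, the oxidised LDL receptor LOX-1, read 8.91 and 7.35 in LysM, 8.05 and 5.66 in KO and 5.23 and 4.48 in WT (3.28 ± 0.57, adjusted p = 0.00253, limma). Siglec1, the sialic acid receptor CD169, read 7.87 and 8.01 in LysM, 8.57 and 6.73 in KO and 5.79 and 5.20 in WT (2.45 ± 0.42).

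P2ry6, the UDP receptor linked to microglial phagocytosis, was 7.70 and 7.18 in LysM, 7.63 and 6.31 in KO and 4.14 and 4.23 in WT, 9.54-fold higher in LysM than in WT (3.25 ± 0.32, adjusted p = 1.89e-05, limma). Rcn3, a calcium-binding protein of the endoplasmic reticulum, was 7.66 and 8.44 in LysM, 8.45 and 8.51 in KO and 5.15 and 4.85 in WT. Anxa5, the phosphatidylserine-binding annexin, was 10.17 and 9.69 in LysM, 9.85 and 9.42 in KO and 7.69 and 6.86 in WT. These 3 genes were also called higher in untreated KO than in untreated WT LPM, by 1.56 for P2ry6, 2.00 for Rcn3 and 1.11 for Anxa5. Gpnmb, a glycoprotein of lipid-laden macrophages, was 8.91 and 7.02 in LysM, 7.07 and 4.92 in KO and 4.57 and 5.06 in WT (3.15 ± 0.55, adjusted p = 0.00243, limma). The metalloproteinase Mmp27 was 6.75 and 6.61 in LysM, 6.26 and 5.70 in KO and 4.39 and 3.84 in WT (2.56 ± 0.19). For P2ry6 and Mmp27 both WT values lay below the array medians (4.85 and 4.82), so the size of these rises is uncertain.

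The largest fall was in Timd2 (TIM-2), a receptor for H-ferritin. It read 3.86 and 5.10 in LysM, 5.32 and 6.29 in KO and 8.46 and 8.90 in WT, 18.3-fold lower in LysM (-4.19 ± 0.33, adjusted p = 2.32e-06, limma). The value of LysM replicate 1 lay below its array median (4.83), so the size of this fall is uncertain. Ucp1, the mitochondrial uncoupling protein best known from brown fat, read 4.93 and 6.56 in LysM, 5.37 and 7.0 in KO and 8.93 and 9.74 in WT (-3.58 ± 0.50, adjusted p = 0.000513, limma). Ly6a2 read 4.31 and 6.20 in LysM, 3.64 and 4.59 in KO and 7.93 and 8.63 in WT. Untreated LPM of both genotypes lay low for all 3 genes, with WT at 3.05 to 3.38 for Timd2, 3.80 to 4.62 for Ucp1 and 3.16 to 3.52 for Ly6a2. The same held for Mall, a MAL-like membrane protein, at 8.19 and 7.20 in LysM, 7.89 and 6.93 in KO and 9.82 and 10.40 in WT, against 4.8 to 5.35 in untreated WT. Parm1 was 5.71 and 5.27 in LysM, 5.57 and 4.99 in KO and 7.36 and 7.63 in WT, with untreated WT at 4.79 to 4.97. For these 5 genes the LysM arrays therefore lay between the untreated and the IL-4c-treated WT arrays.

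Several of the other falls were also seen in untreated KO LPM. Pglyrp1, a secreted peptidoglycan recognition protein, read 5.71 and 7.38 in LysM, 6.85 and 7.63 in KO and 9.67 and 10.27 in WT (-3.42 ± 0.38, adjusted p = 7.64e-05, limma), with a difference of -2.58 in untreated mice (KO minus WT). Id2, which lacks a DNA-binding domain and sequesters E proteins, was 7.4 and 6.79 in LysM, 6.82 and 7.54 in KO and 9.27 and 9.01 in WT (-2.05 ± 0.27, adjusted p = 0.00031, limma), and -1.36 in untreated mice. Lrg1, a leucine-rich glycoprotein that modifies TGF-beta signalling, was 9.11 and 10.20 in LysM, 9.78 and 9.97 in KO and 11.47 and 11.51 in WT. Nt5e (CD73), the ecto-enzyme that makes adenosine from AMP, was 5.74 and 7.21 in LysM, 6.64 and 7.02 in KO and 8.11 and 8.44 in WT, and lost its call without LysM replicate 1 and without WT replicate 2. In IL-4c LPM the paired immunoglobulin-like receptors Pilra (-1.85 ± 0.25) and Pilrb2 (-2.07 ± 0.30) also fell, as did the adaptor Sla (-2.22 ± 0.55, adjusted p = 0.0193, limma). Sla was 6.35 and 9.08 in LysM, and its call was lost when any 1 array other than LysM replicate 2 was left out. Of these 24 leading genes, 13 kept their call under all 14 alternatives.

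**Figure D3:**
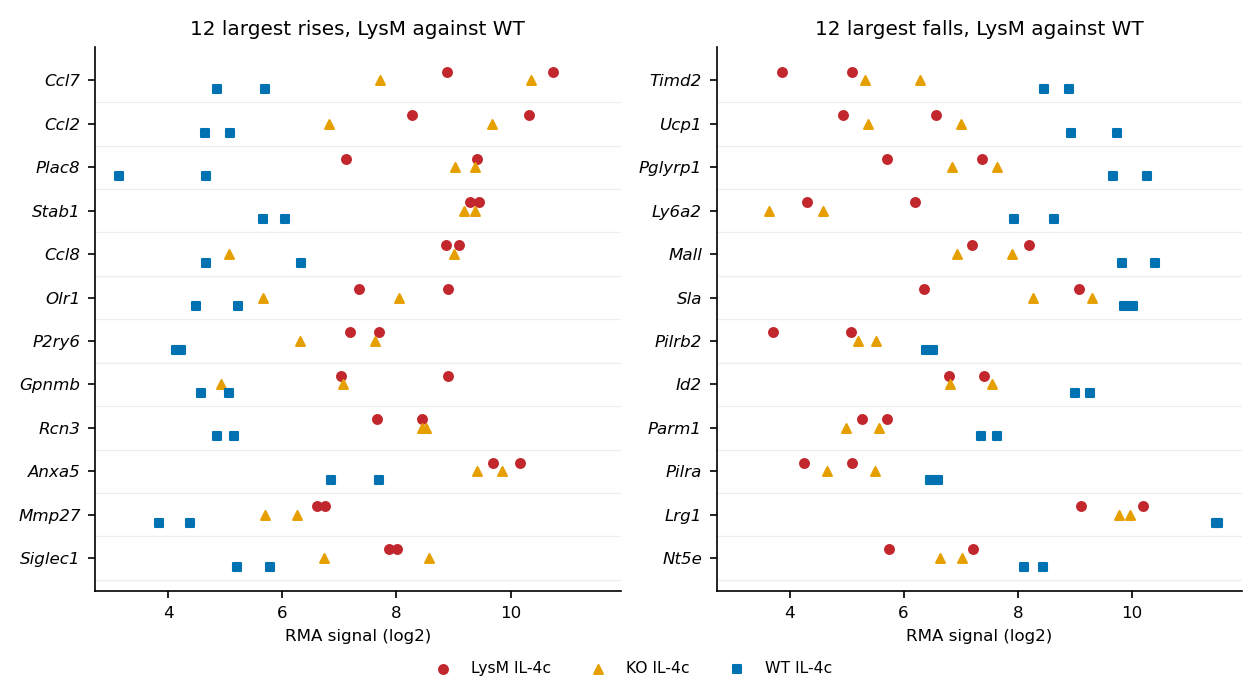
RMA signal (log2, horizontal axis) on each IL-4c LPM array for the 12 largest called rises (left) and falls (right), with LysM as circles, KO as triangles and WT as squares. LysM and WT symbols do not overlap for any of the 24 genes, which the choice of the genes required, and the KO symbols for Stab1, Rcn3 and Anxa5 lie close to LysM.

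Most tested genes of mitosis and DNA replication were called lower in LysM, where 3.87% of all genes were. Of 46 tested genes of G2/M and mitosis, 34 were called lower and 0 higher, and all 46 lay below 0, with a median of -1.03 against -0.01 over all genes. Of 45 genes of DNA replication and S phase, 27 were called lower and 0 higher, and all 45 lay below 0 (median -0.71). Pbk, a mitotic kinase, read 5.44 and 5.86 in LysM, 5.90 and 6.15 in KO and 6.85 and 7.39 in WT (-1.47 ± 0.27, adjusted p = 0.00348, limma). Mki67, the proliferation antigen Ki-67, read 6.95 and 7.78 in LysM, 7.89 and 8.23 in KO and 8.43 and 8.71 in WT (-1.21 ± 0.30, adjusted p = 0.0189, limma). Rrm2, the regulated subunit of ribonucleotide reductase, read 7.65 and 8.44 in LysM, 7.95 and 8.13 in KO and 9.20 and 9.62 in WT (-1.37 ± 0.31, adjusted p = 0.0119, limma). LysM lay below WT without overlap for all 3 genes, and both KO arrays lay between LysM and WT for Pbk and Mki67.

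The spindle checkpoint kinase Bub1 (-1.34), the mitotic kinases Aurka (-1.01) and Plk1 (-1.07), the cyclin Ccnb2 (-1.19), topoisomerase Top2a (-1.06) and the mitotic transcription factor Foxm1 (-1.08) also fell. Among replication genes, the polymerase subunit Prim1 fell by 1.14, thymidylate synthase Tyms by 1.13, the origin factor Orc1 by 1.0 and the sliding clamp Pcna by 0.52. The mean signal of the G2/M list was 6.32 and 7.09 in LysM, 6.99 and 6.98 in KO and 7.56 and 7.81 in WT. That of the S phase list was 6.52 and 6.79 in LysM, 6.71 and 6.78 in KO and 7.23 and 7.59 in WT. LysM replicate 1 was the lowest of the 6 IL-4c arrays for both lists and WT replicate 2 the highest. The calls rested on those arrays: without LysM replicate 1, 1 G2/M and 4 S phase genes were called lower, and without WT replicate 2, 0 and 3. In bulk samples, fewer cells of a kind and less RNA per cell cannot be told apart.

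In KO minus WT, 7 of the 46 G2/M genes (median -0.68) and 10 of the 45 S phase genes (median -0.68) were called lower, with 175 lower calls among all genes (1.5%). KO minus WT and LysM minus WT share the WT arrays. Set directly against KO, LysM was lower for 42 of the 46 G2/M genes (median -0.30) and for 30 of the 45 S phase genes (median -0.08), with 0 called in either list by limma (4 and 2 at an unadjusted p under 0.05). By list mean only LysM replicate 1 lay below the KO arrays, and LysM replicate 2 lay above both. The G2/M means were 6.32 and 7.09 in LysM against 6.99 and 6.98 in KO. For S phase they were 6.52 and 6.79 against 6.71 and 6.78. Genes of a list are no independent replicates.

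Regulators of G1 moved less: of 25 tested, 1 was called higher and 2 lower (12% in all, against 8.67% of all genes). Ccnd2 (cyclin D2) was 7.33 and 5.58 in LysM, 6.65 and 6.11 in KO and 4.99 and 5.34 in WT (1.29 ± 0.37, adjusted p = 0.0404, limma), a call lost without LysM replicate 1, where the difference was 0.42 (adjusted p = 0.48), and without either WT array. Myc was 8.98 and 8.94 in LysM, 9.63 and 9.59 in KO and 9.82 and 9.65 in WT (-0.78 ± 0.22, adjusted p = 0.0333, limma), and its call was lost when any 1 of the 4 arrays was left out. Cdk2 fell by 0.58 (adjusted p = 0.0373, limma). Ccnd1 (0.04), E2f1 (-0.08) and Cdk4 (-0.23) were not called.

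**Figure D4:**
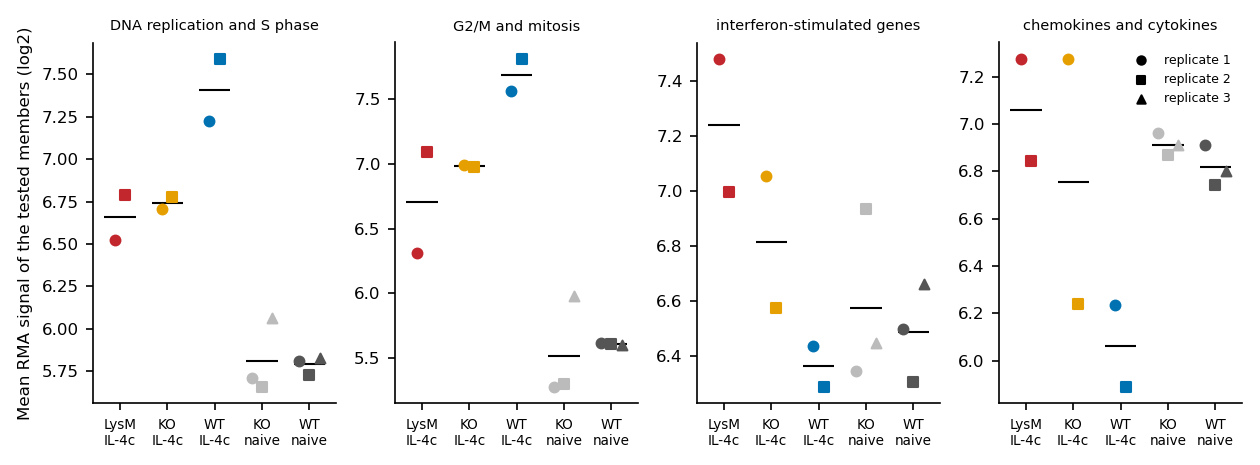
Mean RMA signal (log2, vertical axes that do not start at 0) of the tested members of 4 gene lists on each LPM array, with the replicate number as the marker shape and a bar at the group mean. For S phase and G2/M the LysM and KO arrays lie below WT after IL-4c and above all untreated arrays, and for interferon-stimulated genes both LysM arrays (7.48 and 7.0) lie above both WT arrays (6.44 and 6.29).

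Chemokines and cytokines were the list with the largest single rises. Of 24 tested members 10 were called higher and 1 lower (median 0.40), 45.8% in all against 8.67% of all genes. Besides Ccl7, Ccl2 and Ccl8 the genes called higher were Ccl3 (2.25), Cxcl13 (2.17), Cxcl16 (1.64), Ccl12 (1.63), Ccl4 (1.16), Il1rn (0.78) and Ccl9 (0.75). Cxcl13, the B cell chemokine made by peritoneal macrophages, was 7.96 and 8.97 in LysM, 8.09 and 7.34 in KO and 6.81 and 5.76 in WT. The called fall was in Il6 (-1.67, adjusted p = 0.00113, limma). Tnf (0.23), Il1b (0.02), Cxcl10 (0.21) and Csf1 (-0.11) were not called. The count of higher calls was 4 without LysM replicate 1 and 4 without WT replicate 2.

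Genes of resident macrophages that are linked to the transcription factor MAF were also higher. Of 28 tested members 12 were called higher and 1 lower (median 0.49), 46.4% in all against 8.67% of all genes. The lower one was Timd4, a phosphatidylserine receptor of LPM (-0.85, adjusted p = 0.0433, limma). Timd4 read 8.4 and 9.45 in LysM, 9.36 and 9.26 in KO and 9.71 and 9.86 in WT, so most of the fall lay in LysM replicate 1. It was not called with only the 4 arrays compared or with only the 6 IL-4c arrays. Folr2, a folate receptor, was 8.10 and 8.60 in LysM, 8.56 and 7.93 in KO and 6.75 and 6.04 in WT (1.96 ± 0.30, adjusted p = 0.000854, limma). Cd163, the haemoglobin-haptoglobin receptor, was 5.85 and 6.33 in LysM, 6.34 and 5.42 in KO and 4.35 and 4.67 in WT (1.59 ± 0.26, adjusted p = 0.00143, limma). Ccl24 (1.5), Clec10a (1.41), Mrc1 (1.33), Fcna (0.85), C1qa (0.80) and Pf4 (0.75) rose as well. Maf itself was 6.78 and 7.28 in LysM, 7.58 and 7.14 in KO and 6.85 and 6.41 in WT, with overlap and no call (0.40 ± 0.19, adjusted p = 0.235, limma). Leaving out WT replicate 2 left 4 of the 12 calls.

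Complement and phagocytic receptors overlapped that list in part, and 10 of 27 were called higher and 1, Timd4, lower (median 0.35). In all 40.7% were called, against 8.67% of all genes. C5ar1, the C5a receptor, was 9.98 and 9.72 in LysM, 9.90 and 9.29 in KO and 8.74 and 8.68 in WT (1.14 ± 0.17, adjusted p = 0.000825, limma). Vsig4, the complement receptor CRIg, rose by 1.10, Cd36 by 1.07, the apoptotic-cell bridge Mfge8 by 0.95, the TAM receptor ligand Pros1 by 0.90 and the Fc receptor Fcgr3 by 0.65. Mertk (0.03), Marco (-0.34) and Axl (-0.85) were not called. The higher calls numbered 5 without LysM replicate 1 and 3 without WT replicate 2.

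All 20 tested interferon-stimulated genes lay above 0 and 10 were called higher (median 0.80), where 4.8% of all genes were called higher. Irf7, the transcription factor that amplifies type I interferon, was 9.50 and 9.15 in LysM, 9.29 and 8.0 in KO and 7.35 and 7.01 in WT, 4.43-fold higher in LysM than in WT (2.15 ± 0.33, adjusted p = 0.000955, limma). Rtp4 (1.51), Oasl1 (1.47), Oasl2 (1.33), the ISG15 protease Usp18 (1.28), Rsad2 (1.11) and Stat2 (0.81) also rose. Irf7 kept its call under all 14 alternatives, while the list had 1 call without LysM replicate 1 and 2 without WT replicate 2. In KO minus WT, 1 of the 20 was called higher (median 0.46), where 2.12% of all genes were. LysM minus KO was above 0 for 19 of the 20 with a median of 0.43, and limma called 0 (6 at an unadjusted p under 0.05). The list means of these groups overlapped, at 7.48 and 7.0 in LysM and 7.05 and 6.58 in KO. Replicate 1 was the higher array in LysM, KO and WT, and genes of a list are no independent replicates.

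Immediate early genes, which answer to growth factors and also to cell dissociation and sorting, were partly higher. Of 24 tested, 7 were called higher and 0 lower (median 0.25), 29.2% in all against 8.67% of all genes. Egr2 rose by 1.59, Ier3 by 1.48, Fos by 1.43, Jun by 0.93, Zfp36 by 0.88, Dusp1 by 0.71 and Rgs2 by 0.56, whereas Egr1 (-0.18), Junb (0.07), Atf3 (0.22) and Hspa1a (0.23) were not called. Without LysM replicate 1 or without WT replicate 2, there were 2 calls. The part of cell handling in the rise was not tested.

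The core of alternative activation did not differ. Arg1 (arginase 1) was 12.28 and 12.28 in LysM, 12.36 and 12.24 in KO and 12.25 and 12.30 in WT, a difference of 0.01 (95% interval -0.39 to 0.41). Retnla (RELMalpha) was 12 and 11.99 in LysM and 12.09 and 11.81 in WT, a difference of 0.04 (-0.46 to 0.54). Chil3 (Ym1) was 12.52 and 12.37 in LysM and 12.49 and 12.39 in WT, a difference of 0.00 with a wider interval (-0.95 to 0.95). These signals lay near the top of the array range, where the scale can compress, and 13.67 to 13.84 was the highest signal on the IL-4c arrays. Untreated WT LPM read 7.91 to 8.36 for Arg1, 6.5 to 7.2 for Chil3 and 10.83 to 11.48 for Retnla, so Retnla was already near its IL-4c level.

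Around that core, 7 of 35 tested genes of the list were called higher and 5 lower, with a median of 0.04. In all 34.3% were called, against 8.67% of all genes. The lectins Clec7a (dectin-1, 1.88), Clec10a and Mrc1, transglutaminase Tgm2 (1.86), the chemokine Ccl24 and the nuclear receptor Pparg (0.92) rose. Itgax was also called (0.64), but read 4.02 and 3.78 in LysM and 3.21 and 3.32 in WT, below the array median, and passed the filter on dim genes only through arrays outside IL-4c LPM. Besides Timd2 and Ucp1, the lipoxygenase Alox15 fell by 0.75, the transcription factor Irf4 by 0.80 and the cystatin Cst7 by 0.93. Clec7a was 6.66 and 6.26 in LysM, 5.95 and 5.27 in KO and 5.16 and 4.00 in WT. Of 14 genes of IL-4 receptor and STAT6 signalling 3 were called (21.4%, against 8.67% of all genes). Stat6 rose by 0.49, and Irs1, an adaptor of the IL-4 receptor, and the shared receptor chain Il13ra1 fell by 1.09 and 1.07. Il4ra was not called (0.60). Without WT replicate 2 limma called 0 of these 14 genes, and Stat6 was also lost without LysM replicate 1, without WT replicate 1 and with a replicate block. Without LysM replicate 1 the alternative activation list had 3 higher and 2 lower calls, and without WT replicate 2 it had 2 and 2.

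LPM identity genes were mixed. Gata6 was 9.23 and 9.26 in LysM, 9.08 and 9.17 in KO and 9.24 and 9.17 in WT, a difference of 0.04 (95% interval -0.36 to 0.45). Of 34 tested members of the list 6 were called higher and 4 lower (median 0.15), 29.4% in all against 8.67% of all genes. Cd93, a C1q-binding surface protein, was 9.95 and 10.14 in LysM, 10.08 and 9.89 in KO and 8.80 and 8.80 in WT (1.25 ± 0.17). Cd14 (1.0) and Tgfb2 (0.70) rose, and coagulation factor F5 fell by 1.02. Klf2 (0.15), Klf4 (-0.06), Adgre1 (0.34) and Icam2 (0.41) were not called. Without LysM replicate 1 the list had 2 higher and 2 lower calls, and without WT replicate 2 it had 2 and 1.

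Lipid genes were called in both directions. The share called was 30.8% for cholesterol efflux, 23.8% for fatty acids and 15.8% for cholesterol synthesis, against 8.67% of all genes. Of 13 tested targets of the oxysterol receptor LXR and of cholesterol efflux, 4 were called higher and 0 lower (2 higher without WT replicate 2). The cholesterol exporter Abca1 was 6.87 and 6.85 in LysM, 7.28 and 5.87 in KO and 5.79 and 4.89 in WT (1.52 ± 0.34, adjusted p = 0.0112, limma), the receptor Nr1h3 (LXRalpha) rose by 1.33, Pltp by 0.91 and Apoe by 0.80. The Abca1 call was lost without LysM replicate 1 and without WT replicate 2. Of 21 genes of fatty acid uptake, synthesis and oxidation 2 were called higher, Cd36 and Pparg, and 3 lower. Fatty acid synthase Fasn fell by 0.99, acetyl-CoA carboxylase Acaca by 0.93 and malic enzyme Me1 by 1.43. With only the 4 arrays compared, 0 genes of the fatty acid list were called in either direction. With only the 6 IL-4c arrays, 1 was called higher and 1 lower. Insig1, which retains the SREBP complex in the endoplasmic reticulum, was 9.17 and 9.01 in LysM, 9.17 and 8.93 in KO and 7.95 and 8.01 in WT (1.11 ± 0.18, adjusted p = 0.00165, limma). Of 19 cholesterol synthesis genes 2 were called higher, Insig1 and Tm7sf2, and 1 lower, Idi1. Insig1 kept its call under all 14 alternatives, Tm7sf2 lost it when any 1 of the 4 arrays was left out, and Idi1 when any 1 other than WT replicate 1 was.

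None of 28 tested genes of oxidative phosphorylation was called by limma, although 27 lay below 0 (median -0.23) and 12 had an unadjusted p under 0.05. The mean of the list was 9.35 and 9.68 in LysM and 9.74 and 9.79 in WT, lowest in LysM replicate 1, and 5 members were called lower without LysM replicate 2. The only member above 0 was Ndufa4. The largest fall in value was Ndufv1, at 7.67 and 8.07 in LysM and 8.31 and 8.61 in WT (-0.59, adjusted p = 0.0572, limma). In glycolysis the regulator Pfkfb3 rose by 0.98, and Aldoc and Pgam1 fell by 1.14 and 0.58, out of 15 tested, where 20% were called against 8.67% of all genes. The Pfkfb3 and Pgam1 calls were lost when any 1 of the 4 arrays was left out, and Aldoc lost its call without LysM replicate 2 and without WT replicate 2. Of 26 ribosome biogenesis genes 2 were called lower and 0 higher (median -0.21), a share of 7.69%, near that of all genes. Of 20 nucleotide synthesis genes 2 were called lower and 1 higher (15%). Without WT replicate 2 the nucleotide list had 0 calls in either direction by limma, as had the 2 lists that follow. Of 16 redox genes 2 were called lower, Me1 and Gclm (12.5%). Of 11 arginine and polyamine genes 2 were called higher, Smox and Sat1 (18.2%).

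Helix-loop-helix genes and clock genes were examined because Bhlhe40 belongs to both systems. The share called was 25% for E and Id proteins, 7.14% for clock genes and 12.5% for MHC class II, against 8.67% of all genes. Of 12 E protein, Id protein and related genes, Mitf, a regulator of lysosomal genes, rose by 0.86, and Id2 and Id1 fell by 2.05 and 1.09. Of 14 clock genes 11 lay above 0 (median 0.32), but the only call was Nfil3, which fell by 0.62 (adjusted p = 0.0149, limma) and lost its call without LysM replicate 2 and without WT replicate 1. Nr1d1 (1.28) and Per1 (0.40) were not called. Of 8 MHC class II genes 1, H2-Eb1, was called higher (0.61), a call lost without LysM replicate 2 and without either WT array.

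**Figure D5:**
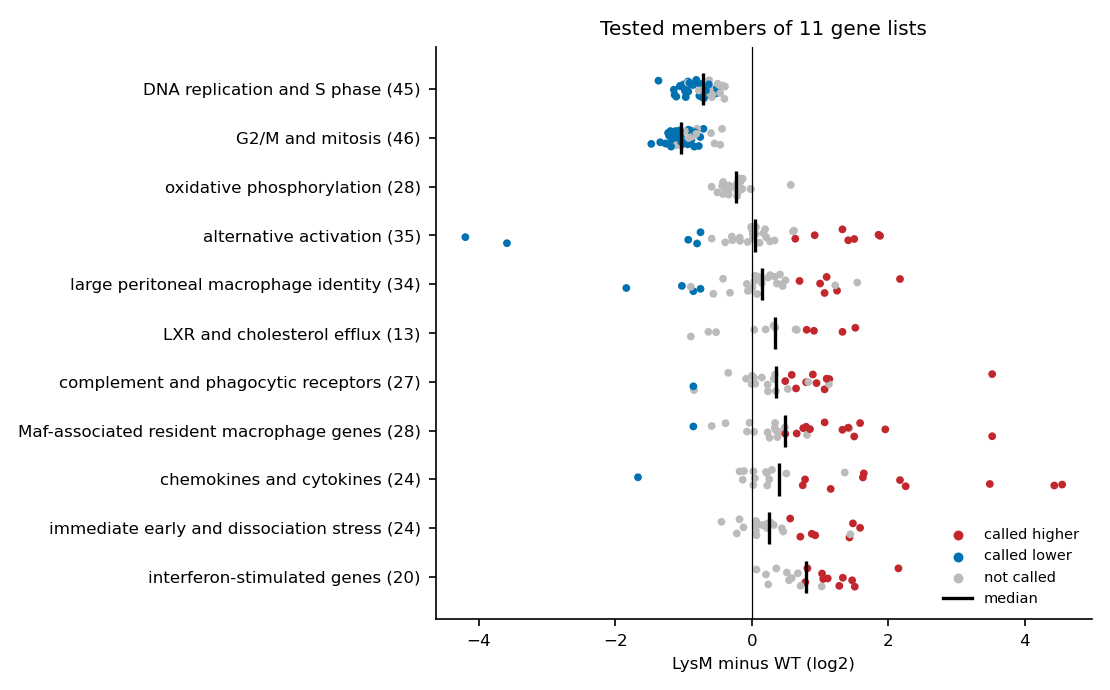
Difference between LysM and WT (log2, horizontal axis) for each tested member of 11 gene lists, with called genes in red (higher) or blue (lower), other genes in grey and a black bar at the list median. The S phase and G2/M members all lie below 0 and the interferon-stimulated genes all lie above 0, while alternative activation spreads to both sides of a median of 0.04.

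The E-box bound by Bhlhe40, CACGTG, was searched in RefSeq promoter windows of 300 bases (250 before and 50 after each annotated start, GRCm38.p6). The motif is its own reverse complement, so both strands give the same matches, and windows of a gene with several starts were pooled. It was found in 7.15% of all windows. By gene, 11.8% of the 9327 tested genes with a window held it, 15.5% (70 of 452) of those higher in LysM and 6.08% (22 of 362) of those lower. These shares are given without a test. None of the 8 leading rises and 11 leading falls that have a window held the motif. The windows printed below are those of 3 called genes of lipid and sugar metabolism that hold the motif, with the match in capitals, and of Stab1, which holds none. The match begins 101 bases before the start in Insig1, 147 in Abca1 and 53 in Pfkfb3, whose other window holds none. Egr2, also called higher, holds the motif 27 bases before a start. Among named genes called lower, Tyms (61 bases before the start) and Irs1 (115) hold the motif too. So do Bhlhe41, Klf4 and Ndufv1, which were not called. A match is a description of these letters, and its absence says only that the letters are not in the window.
Insig1 (chr5:28071162-28071461, plus strand): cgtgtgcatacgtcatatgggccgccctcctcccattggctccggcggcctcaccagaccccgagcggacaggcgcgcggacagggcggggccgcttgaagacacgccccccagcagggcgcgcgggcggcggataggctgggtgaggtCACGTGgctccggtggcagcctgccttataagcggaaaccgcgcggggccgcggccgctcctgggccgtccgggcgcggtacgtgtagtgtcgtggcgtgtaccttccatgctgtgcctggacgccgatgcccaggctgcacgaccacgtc
Abca1 (chr4:53159846-53160145, minus strand): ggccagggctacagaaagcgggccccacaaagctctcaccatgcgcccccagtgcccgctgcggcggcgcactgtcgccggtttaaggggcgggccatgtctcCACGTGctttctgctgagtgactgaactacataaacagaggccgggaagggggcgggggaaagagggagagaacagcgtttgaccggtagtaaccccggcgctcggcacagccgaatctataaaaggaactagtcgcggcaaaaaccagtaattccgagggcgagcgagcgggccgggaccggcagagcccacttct
Pfkfb3 (chr2:11502041-11502340, minus strand): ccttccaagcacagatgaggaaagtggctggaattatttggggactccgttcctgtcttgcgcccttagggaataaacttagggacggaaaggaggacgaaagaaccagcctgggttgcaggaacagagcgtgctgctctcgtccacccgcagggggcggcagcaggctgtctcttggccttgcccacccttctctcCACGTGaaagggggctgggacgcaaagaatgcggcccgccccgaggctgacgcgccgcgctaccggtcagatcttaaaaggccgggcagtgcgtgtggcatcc
Stab1 (chr14:31168592-31168891, minus strand): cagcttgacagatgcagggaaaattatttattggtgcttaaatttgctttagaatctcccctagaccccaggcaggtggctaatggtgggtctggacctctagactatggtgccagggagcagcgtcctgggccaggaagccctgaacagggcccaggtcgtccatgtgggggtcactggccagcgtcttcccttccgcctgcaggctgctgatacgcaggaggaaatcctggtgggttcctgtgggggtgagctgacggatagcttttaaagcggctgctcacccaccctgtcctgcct

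The direct comparison of LysM with KO, which asks how myeloid deletion differs from loss in all cells, called 2 of 11634 genes (0.0172%), both higher in LysM. Before adjustment, 1024 genes had a p under 0.05. Pla2g7, the lipoprotein-associated phospholipase that degrades platelet-activating factor, was 9.24 and 8.77 in LysM, 7.78 and 7.78 in KO and 9.09 and 9.01 in WT (LysM minus KO 1.22, 95% interval 0.85 to 1.59, adjusted p = 0.0205, limma). In untreated LPM Pla2g7 read 9.14 to 9.51 in KO and 10.37 to 10.56 in WT. Its call was lost without LysM replicate 1 (adjusted p = 0.143) and without KO replicate 2 (0.118). G530011O06Rik, a gene with annotated starts on chromosomes X and Y, was 6.05 and 6.02 in LysM, 4.35 and 4.15 in KO and 3.44 and 3.36 in WT (LysM minus KO 1.79, adjusted p = 0.00293, limma), and missed the threshold without KO replicate 2 (0.0549).

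For 11135 of the 11634 genes (95.7%) the 95% interval of the LysM minus KO difference lay within 2-fold in either direction, and the median interval reached 0.36 to either side of its estimate. The named genes nearest the threshold were Tnfrsf23 (0.95, adjusted p = 0.062), Tex9 (1.30, 0.062), Cirbp (1.05, 0.0928) and Porcn (0.86, 0.0928) above 0 and Ctsc (-0.79, 0.0928) below, all by limma and none called. Tnfrsf23, a decoy receptor for TRAIL, read 6.89 and 6.89 in LysM, 6.03 and 5.84 in KO and 5.26 and 5.69 in WT, and its LysM minus WT difference of 1.42 was called under all 14 alternatives. The LysM arrays lay above both KO arrays for 17.4% of all genes and below for 16.6%. Leaving out LysM replicate 2 raised the LysM minus KO count to 111, and leaving out KO replicate 1 raised it to 46.

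Genes with large KO minus WT differences were looked up in LysM. Besides those above, Tnxb was 6.62 and 6.30 in LysM, 7.57 and 6.52 in KO and 4.53 and 4.15 in WT (2.12 ± 0.27 for LysM minus WT). Me1 was 4.26 and 4.49 in LysM, 4.26 and 3.85 in KO and 5.35 and 6.25 in WT. KO minus WT called 422 genes (3.63%), 247 higher (2.12%) and 175 lower (1.5%), and the KO arrays lay above both WT arrays for 20.4% of all genes and below for 24.8%. The WT arrays serve both comparisons, so no agreement between them is counted here. KO minus WT was 3.77 for Ccl7, 3.38 for Ccl2, 5.30 for Plac8, 3.43 for Stab1 and 3.48 for Rcn3, all called, and -2.88 for Timd2, -3.15 for Ucp1 and -4.17 for Ly6a2, all called. For Ccl8 (1.54, adjusted p = 0.345), Gpnmb (1.18, 0.285), Olr1 (2.01, 0.064) and Sla (-1.16, 0.299) it was not called by limma. Whether these differences were smaller than in LysM was tested only by LysM minus KO, which called none of them.

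Untreated LPM offer a comparison with no array in common, although all groups share one variance estimate per gene. Over all genes tested, 4.8% were called higher and 3.87% lower in LysM than in WT. Of 62 genes called higher in untreated KO than in untreated WT LPM, 35 were called higher in LysM than in WT after IL-4c. These were 56.5% of that list and 6.26% of the 559. Of the same 62 genes, 0 were called lower, and 59 lay above 0 (median 0.77). Stab1, Rcn3, P2ry6, Folr2 and Anxa5 were among the 35, as were the Toll-like receptor Tlr1 (1.41), the oxysterol receptor Gpr183 (1.31), the lipase Aoah (1.64) and Emp1 (2.43). Lyve1, Cd28 and Mrvi1 were in the untreated list and were not called in LysM. Of 157 genes called lower in untreated KO, 22 were called lower in LysM (14% of that list and 4.89% of the 450), with a median of -0.09. A further 5, Csf3r, Fcgr3, Rgs2, Hcar2 and Smpd1, were called higher. They were 3.18% of that list, below the 4.8% of all genes. Pglyrp1, Lrg1, Id2 and Nt5e were among the lower ones.

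Genes that IL-4c moved at least 2-fold in KO were described in the same way, since that contrast also shares no array with LysM minus WT. Of 612 genes raised by IL-4c in KO, 113 were called lower and 86 higher in LysM than in WT (median -0.08), 32.5% in all against 8.67% of all genes tested. Of 336 genes lowered by IL-4c in KO, 47 were called higher and 21 lower (median 0.12), 20.2% in all.

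Some markers of other peritoneal cells lay above the array median. Of the 13 measured for monocytes, dendritic cells and small peritoneal macrophages this held for 5 on each LysM array and 4 on each WT array, Cd209a (6.5 and 7.72 in LysM, 7.83 and 6.46 in WT) among them. The neutrophil marker S100a8 read 7.12 and 7.24 in LysM and 6.98 and 5.9 in WT. Among 8 tested markers of monocytes, dendritic cells or small peritoneal macrophages, Plac8 and the dim Itgax were called higher and Irf4 lower. Cx3cr1 (0.33), Ccr2 (-0.24) and Clec9a (0.22) were not called. Ccr2 (4.16 and 4.13 in LysM, 4.71 and 4.06 in WT) and Clec9a (3.21 and 3.17, 3.15 and 2.78) lay below the array median. Their lack of a call therefore says little about these cells. The mean over all 13 measured members was 4.83 and 4.96 in LysM and 4.62 and 4.40 in WT. Of 6 tested neutrophil markers Csf3r was called higher (6.72 and 7.06 in LysM, 5.88 and 5.32 in WT), and the mean over 10 measured members was 4.27 and 4.35 in LysM and 4.22 and 4.04 in WT. No tested marker of B cells (5), T and NK cells (3), eosinophils (2), mast cells (1), mesothelial cells and fibroblasts (4) or red cells (1) was called by limma, with 1 B cell and 1 T or NK cell marker at an unadjusted p under 0.05. Mean signals of these 6 lists ran from 3.41 to 4.48 on the LysM and WT arrays, below every array median. Single members lay above it on all 4 arrays, namely Ighm (4.94 to 5.07), Krt8 (5.38 to 6.26) and Col1a1 (5.38 to 5.65). Of the T and NK cell markers 0 did so, though Il7r read 5.93 and 4.03 in LysM and 4.14 and 3.91 in WT. The part of other cells in the rises of Ccl2, Ccl7 and Plac8 was not tested.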

How the data were processed

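The deposited matrix held the authors' log2 expression values, 30177 probe sets on 16 arrays. Per the submitters' processing notes the method was RMA, which subtracts background, equalises the distribution of signals between arrays and summarises probes. No source used here gives its version. The values carry no detection calls, and because arrays are equalised a difference in total RNA cannot be seen. Groups and replicate numbers came from the titles. Probe sets with 1 gene symbol (21789) were used, those with several (1621) or none here (6767) were not, and the brightest stood for each of 999 genes with several. A gene was tested if it lay above the median of at least 2 arrays, which left 11634 of 19938.

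Group means were fitted to all 16 arrays with limma 3.58.1 (lmFit and eBayes, R 4.3.3), so all groups contribute to each gene's variance (9 residual and 6.61 prior degrees of freedom). Calls were made at a Benjamini-Hochberg adjusted p under 0.05 over the genes tested. The code was tested on simulated data. The groups compared, the gene lists and the naming rule were chosen with earlier results of these data known. The rule took a set of regulators and IL-4 markers, the 12 largest called rises and 12 largest called falls whose arrays did not overlap, up to 3 genes of each list, the leaders of LysM minus KO and 16 leaders of KO minus WT, and left out predicted or numbered symbols. G530011O06Rik falls outside it and was named because it was 1 of 2 calls. Other list members are examples chosen after their values were seen. Figures were drawn with matplotlib 3.10.9 in Python 3.11.15.

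The replicate numbers were used as names, since no label ties a number to a batch or animal. As alternatives, arrays were quantile-normalized again or centred on the median, the dim-gene filter was dropped or set where 95% of 1035 probe sets of olfactory receptors lay below it, and probe sets of a gene were averaged. The variance was also given a trend with robust estimation, array weights or a replicate block, the fit was limited to 4 or 6 arrays, and each array was left out. A group then reduced to a single array was assumed to vary as the others do. List counts and the LysM minus KO genes under these settings were added after seeing the data.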

Additional observations from a re-analysis of the deposited data

How the results depend on the processing

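The LysM minus WT count of 1009 ran from 780 to 1089 under the second quantile normalization, median centring, both other filters, probe set means, intensity trend, replicate block and array weights, and the share of higher calls, 55.4% as reported, from 54.9% to 59.3%. It fell to 150 with only the 4 arrays compared and to 216 with only the 6 IL-4c arrays, where fewer arrays estimate the variance, and ran from 240 to 1193 when 1 array was left out. The share of higher calls was 77.3% with the 4 arrays, 63% with the 6, 69.6% without LysM replicate 1, 74.2% without WT replicate 2 and 50.5% without WT replicate 1. LysM minus KO had 8 calls with an intensity trend, 0 with only its 4 arrays (570 at an unadjusted p under 0.05), 1 with the 6 IL-4c arrays, 12 with the replicate block, 1 with array weights, and 1 to 111 when 1 array was left out. KO minus WT had 117 with its 4 arrays, 54 with the 6 IL-4c arrays and 84 to 418 when 1 array was left out. In the fits on 4 or 6 arrays the number of arrays and the groups used changed together, so their effects cannot be told apart. The reported SEs rest on the spread within all groups, not only on that of the arrays compared. The cause of these differences was not tested. Deviations of same-numbered arrays correlated at 0.148 for LysM and WT, 0.21 for LysM and KO and 0.115 for KO and WT, and under the block LysM minus WT had 1028 calls and KO minus WT 465. Of 85 named genes called in LysM minus WT, 25 kept their call under every alternative and 0 changed sign. List counts by setting were chosen after seeing the data. Signals below the array median on nearly all arrays were not tested, so low genes limit what can be seen.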

Other observations

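Lysosomal genes were looked at apart from the lists above. The list of 66 tested lysosomal enzymes and membrane proteins was written after the called genes had been seen, so its counts are a description. Of these, 32 were called higher in LysM than in WT and 1 lower, and 60 lay above 0 (median 0.57), where 4.8% of all genes were called higher. Atp6v0d2, a subunit of the proton pump, rose by 1.86, the tetraspanin Cd63 by 1.79, the protease legumain (Lgmn) by 1.42, arylsulfatase A (Arsa) by 1.32 and cathepsin B (Ctsb) by 0.72. The exception was Ctsc, the protease that activates granule serine proteases, which was 7.95 and 8.41 in LysM, 8.90 and 9.05 in KO and 9.54 and 9.58 in WT (-1.38 ± 0.14, adjusted p = 4.01e-05, limma). In KO minus WT, 6 of the 66 were called higher and 1 lower (median 0.28), where 2.12% and 1.5% of all genes were. With only the 4 arrays compared, 3 were called higher in LysM minus WT. Without LysM replicate 1 there were 10 higher calls in LysM minus WT, and without WT replicate 2 there were 11. For TGF-beta ligands and receptors, 6 of 12 were called higher, Lrrc32 (1.93) and Tgfbr2 (1.42) among them. For purinergic receptors it was 4 of 10, P2ry6 (3.25) and P2rx1 (2.30) among them, again where 4.8% of all genes were called higher. With only the 4 arrays compared, these counts were 2 and 3. Without LysM replicate 1, and likewise without WT replicate 2, these counts were 4 and 3.

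Of 24 replication-dependent histone genes 13 were called lower and 1, H2bc4, higher (median -0.98), with 4 lower calls without LysM replicate 1 and 3 without WT replicate 2. The histone list was drawn by symbol, and 1 of the 24, H1f10 (0.11, not called), is not replication-dependent. Histone genes share near-identical sequence, so single members are uncertain. Of 34 SR proteins and hnRNPs, which guide splicing, 10 were called lower and 0 higher (median -0.25), Sfpq (-0.89) and Srsf3 (-0.55) among them, and 1 was called lower without LysM replicate 1 or without WT replicate 2. Over all genes, 3.87% were called lower. With only the 4 arrays compared, 2 histone genes and 0 SR proteins or hnRNPs were called lower. These lists too were written after the values had been seen.

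Called genes were spread over the chromosomes, at 6.16% to 10.4% of the tested genes of each autosome and of X. Within 10 Mb of Lyz2, 8 of 63 tested genes were called in LysM minus WT, Lyz1 among them, and within 10 Mb of Bhlhe40, 6 of 65. In KO minus WT the counts were 2 and 5. In the Bhlhe40 window Prok2 (2.34 in LysM minus WT and 2.07 in KO minus WT) was called higher in both comparisons. The same held for Camk1 (0.555 and 0.743), 4.67 Mb from Bhlhe40, and Pparg (0.92 and 1.04), 6.7 Mb from it. Fancd2 (-0.97 and -0.96), 4.87 Mb from Bhlhe40, was called lower in both. Over all genes, 8.67% were called in LysM minus WT and 3.63% in KO minus WT. A passenger segment beside either locus was not tested.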
